A study of Rattus norvegicus with 14 samples.

Results

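The mRNAs of 10 glycolysis enzymes, Hk1, Hk2, Pfkl, Aldoa, Tpi1, Gapdh, Pgk1, Pgam1, Eno1 and Ldha, were followed in rat colonocytes, the epithelium of the large bowel, under 2 diets. These were a normal-protein diet, NPD, and a high-protein diet, HPD. All non-control probes whose gene name on the array equals one of these symbols were taken, which gave 16 probes of 10 genes among 30367 probes with 26276 gene names. No gene of the list was absent from the array. Male Wistar rats, aged 5 to 6 weeks on arrival, received a standard diet for 1 week and then the NPD, with 14% of energy from protein, or the HPD, with 55%, for 15 days. The diets were isocaloric, with less corn starch and sucrose in the HPD in exchange for whole milk protein. At the end of the feeding period the cells were loosened from the rinsed colon with EDTA, and their RNA was labelled with Cy3 and hybridised to 1-colour Agilent arrays. There were 7 NPD and 7 HPD arrays, 1 per rat, and the outlier that the authors removed from each diet was not analysed here. The study asked how the colonic epithelium responds to a diet rich in protein.

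Glycolysis turns glucose into pyruvate in the cytosol. Its upper part spends ATP to make and split a doubly phosphorylated sugar, and its lower part returns ATP and NADH, while lactate dehydrogenase oxidises NADH again by making lactate. Colonocytes are known for drawing much of their energy from butyrate, a product of the bacteria of the colon, and burn glucose beside it.

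Values are background-subtracted signals on the log2 scale, each relative to the median probe of its array, so that 0 is the signal of the typical probe. The median background-subtracted signal ranged from 66.0 to 100 on the NPD arrays and from 53.5 to 75.1 on the HPD arrays, and the arrays correlated with each other at 0.970 to 0.992. The arrays lay on 2 slides, with 4 NPD and 3 HPD arrays on slide 1 and 3 NPD and 4 HPD arrays on slide 2. All 16 probes of the 10 genes were well above background on all 14 arrays, and none was saturated on any array. The epithelial markers were present in both diets, as all 7 absorptive markers (Epcam, Cdh1, Vil1, Krt20, Slc26a3, Car1 and Aqp8) were well above background on all 14 arrays. In bulk samples such as these, fewer cells of a type and less RNA per cell cannot be told apart. A difference is HPD minus NPD on the log2 scale, and a probe was called at a Benjamini-Hochberg adjusted p below 0.1 in a limma fit over all probes.

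The probes are 60-base oligonucleotides whose place in the transcript matters for what follows. The array's annotation places the 3 Gapdh probes on the minus strand of rat chromosome 4 (build rn4), at chr4:161282310-161282369, chr4:161282433-161282601 and chr4:161282760-161282907. They begin at bases 1122, 1000 and 783 of the Gapdh transcript. The coordinate spans of the latter 2 probes, 169 and 148 bases, are longer than the 60 bases printed on the array, as for probes that cross a splice junction. Gapdh has many near-copies in the rat genome, and the sequences of these 2 upstream probes are shown with the most similar probe of another gene name, the letters that differ in capitals.
Gapdh A_64_P052510: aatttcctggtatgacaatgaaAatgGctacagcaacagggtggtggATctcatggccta
XM_345008 A_64_P003045: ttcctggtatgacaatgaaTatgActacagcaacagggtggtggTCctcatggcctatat
Gapdh A_64_P232432: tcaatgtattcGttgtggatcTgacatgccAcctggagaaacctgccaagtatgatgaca
XM_221353 A_64_P152543: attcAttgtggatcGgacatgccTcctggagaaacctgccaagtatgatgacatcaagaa
The former pair differed at 4 of 57 overlapping bases and the latter at 3 of 53. Signals of such probes cannot be assigned to a single gene with certainty. The Aldoa probe lies at chr1:185972062-185972121 on the minus strand and begins at base 581 of its transcript. It is the only probe of Aldoa on the array, and is shown because Aldoa differed most between the diets among the 10 genes.
Aldoa A_44_P258912: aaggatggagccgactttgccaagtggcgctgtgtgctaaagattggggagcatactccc
The 3 Eno1 probes begin at bases 1609, 1469 and 672 of their target transcripts. The former 2 lie on the plus strand at chr5:167405465-167405524 and chr5:167405206-167405265, whereas the annotation places the last one on chromosome 10 at chr10:53300221-53300280 (minus strand). The brightest probes of the other genes all begin far along their targets, from base 1287 in Tpi1 to base 3570 in Hk1. The Hk1 probe is unmapped in the annotation, and the Pgam1 probe is placed on chromosome 10, at chr10:110469834-110469894.

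None of the 10 genes was called at the brightest probe, and none of the 16 probes was called, where 0.056% of all probes were (limma, lowest adjusted p of the 10 genes 0.438). At an unadjusted limma p under 0.05 the count was likewise 0 of 10 genes, against 11.4% of all probes. By the brightest probe, 8 genes had a higher mean in the HPD rats and 2, Hk2 and Aldoa, a lower mean, where 35.8% of all probes had a lower one. The place of Gapdh among the 8 rests on the choice of probe, since its 3′ probe is the brightest over all arrays but not in the NPD rats, where it averaged 8.72 and the probe beginning at base 1000, with a difference of -0.13, averaged 8.86. The median difference over the 10 genes was 0.18, beside 0.11 over all probes and 0.13 over the tenth of probes with the highest signal, in which most of these genes lie. The median over the 10 genes of each rat's deviation from the NPD mean was 0.01 ± 0.23 (SD, n = 7) in NPD and 0.18 ± 0.27 (SD, n = 7) in HPD (p = 0.246 over all splits of the arrays and 0.248 within slides, both by exact two-sided permutation).

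**Figure D1:**
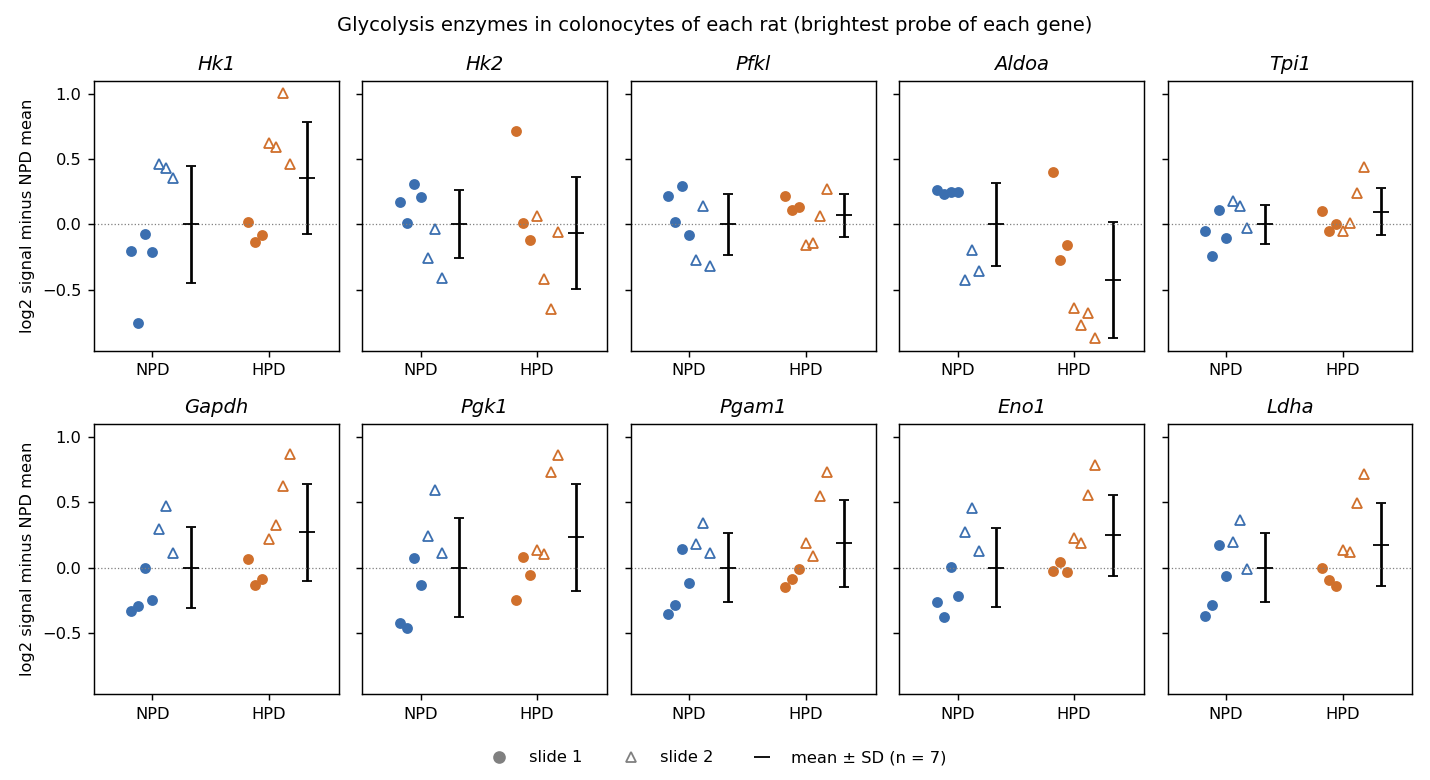
Log2 signal of the brightest probe of each gene in each rat, minus the mean of the NPD rats (y axis, log2 units), for NPD (blue) and HPD (orange). Filled circles are arrays of slide 1, open triangles arrays of slide 2, and bars the mean ± SD over 7 rats. The diets overlap in all 10 genes, where they do not overlap in 0.273% of all probes. Aldoa lies below the NPD mean in 6 of 7 HPD rats.

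The hexokinases trap glucose in the cell as glucose 6-phosphate. Hk1, the widely expressed form, ran from 5.56 to 6.78 (median 6.24) in NPD and from 6.18 to 7.32 (median 6.78) in HPD. The difference was 0.35 with an SE of 0.22 (limma adjusted p = 0.512), and 5 of the 7 HPD rats were above the mean of NPD. Most of the spread of Hk1 lay between the slides, which differed by 0.74, and within them the diet difference was 0.24 on slide 1 and 0.25 on slide 2 (p = 0.0237 by exact two-sided permutation within slides and 0.157 over all splits). Hk2, the insulin-responsive form of muscle and growing cells, ran from 2.68 to 3.40 (median 3.1) in NPD and from 2.44 to 3.80 (median 3.03) in HPD. Its difference of -0.07 (SE 0.19, 95% confidence interval -0.46 to 0.33) was smaller than the spread between rats.

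Pfkl, the liver-type phosphofructokinase of the committed step, had a difference of 0.07 (SE 0.12) at its 3′ probe and of -0.01 (SE 0.14) at a probe 120 bases upstream. At the 3′ probe it ran from 2.32 to 2.93 in NPD and from 2.48 to 2.91 in HPD, so that the HPD range lay inside the NPD range.

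Aldoa, the aldolase that splits fructose 1,6-bisphosphate, was the gene with the lowest difference. It read 7.48 to 8.17 (median 8.14) in NPD and 7.04 to 8.31 (median 7.27) in HPD. All HPD rats but replicate 1, which at 8.31 was the highest of the 14, lay below the NPD mean of 7.91 ± 0.32 (SD, n = 7), and the HPD mean was 7.48 ± 0.45 (SD, n = 7). The difference of -0.43 (SE 0.20, 95% confidence interval -0.86 to 0.00, 0.743-fold) was not called (limma adjusted p = 0.438). By the exact two-sided permutation test p was 0.06 over all splits and 0.00408 within slides, where the difference was -0.26 on slide 1 and -0.41 on slide 2. With slide as a block in limma the difference was -0.34 (unadjusted p = 0.00687, adjusted p = 0.207), and Aldoa was then the only one of the 10 genes with an unadjusted p under 0.05, against 14.6% of all probes. Leaving out each array in turn, the difference ranged from -0.57 without HPD replicate 1 (limma adjusted p = 0.131) to -0.36 without HPD replicate 7 (limma adjusted p = 0.662). The Aldoa-like gene Aldoal1, whose probe begins at base 680 of its own transcript, ran from 7.14 to 7.60 in NPD and from 6.74 to 7.73 in HPD. Its difference was -0.37 (SE 0.16, limma adjusted p = 0.425), and 6 of the 7 HPD rats were below the mean of NPD. In all, 3 probes described as aldolase A-like were well above background on all arrays, and their differences ranged from -0.37 to -0.20. Further probes of the aldolase A-like LOC688539, well above background on 6 and 0 arrays, differed by 0.66 and 0.24 (limma adjusted p = 0.417 and 0.515). Aldolase A-like probes may bind the same RNA as the Aldoa probe, so they are not independent of it.

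The lower part of the pathway starts with Tpi1, which interconverts the 2 triose phosphates and ran from 8.08 to 8.50 in NPD and from 8.27 to 8.76 in HPD. Its difference was 0.10 (SE 0.11) at the 3′ probe and 0.04 (SE 0.10) at a probe 81 bases upstream. Gapdh, which oxidises glyceraldehyde 3-phosphate and yields NADH, ran from 8.39 to 9.19 (median 8.72) in NPD and from 8.59 to 9.59 (median 8.94) in HPD at its 3′ probe. The difference there was 0.27 (SE 0.18, limma adjusted p = 0.515), and 5 of the 7 HPD rats were above the mean of NPD. Pgk1, which makes ATP from 1,3-bisphosphoglycerate, had a difference of 0.23 (SE 0.20), from 8.92 to 9.98 in NPD and from 9.14 to 10.25 in HPD. Pgam1, the mutase of the next step, had a difference of 0.19 (SE 0.16), from 8.64 to 9.34 in NPD and from 8.85 to 9.73 in HPD.

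Eno1, the enolase that makes phosphoenolpyruvate, ran from 9.79 to 10.62 (median 10.17) in NPD and from 10.13 to 10.95 (median 10.35) in HPD at its 3′ probe, a difference of 0.25 (SE 0.17, limma adjusted p = 0.515). Ldha, which reduces pyruvate to lactate, had a difference of 0.17 (SE 0.16), from 9.74 to 10.48 in NPD and from 9.97 to 10.83 in HPD. The slides differed in these genes by as much as or more than the diets, by 0.54 in Gapdh and Pgk1, 0.42 in Pgam1, 0.47 in Eno1 and 0.38 in Ldha, all higher on slide 2. With the slide means removed, the signals of Tpi1, Gapdh, Pgk1, Pgam1, Eno1, Ldha and Pfkl moved together from rat to rat, with Pearson's r between 0.79 and 0.93 against the mean of the other genes of the list over 14 arrays. The correlation was 0.41 for Hk1, 0.24 for Hk2 and -0.24 for Aldoa. These correlations are a description, since all genes of a rat share 1 array. Among 15297 other genes well above background, the pattern most like the mean of the 10 genes was that of Actn4, an actin-binding protein (r = 0.95), followed by LOC303448, a Gapdh-like gene, and the unnamed probes A_64_P148966, A_64_P150064 and A_64_P138684 (r = 0.94 each).

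The 10 genes leave out the steps of Gpi and Pkm. Gpi, the isomerase between the hexokinases and phosphofructokinase, had a difference of -0.09 (SE 0.10, limma adjusted p = 0.649). Pkm, named Pkm2 on the array, is the pyruvate kinase that closes the pathway, and ran from 8.08 to 8.63 (median 8.44) in NPD and from 8.35 to 8.84 (median 8.61) in HPD at its 3′ probe. Its difference was 0.23 (SE 0.12, limma adjusted p = 0.456), and 6 of the 7 HPD rats were above the mean of NPD (p = 0.0472 over all splits of the arrays and 0.0147 within slides, both by exact two-sided permutation).

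**Figure D2:**
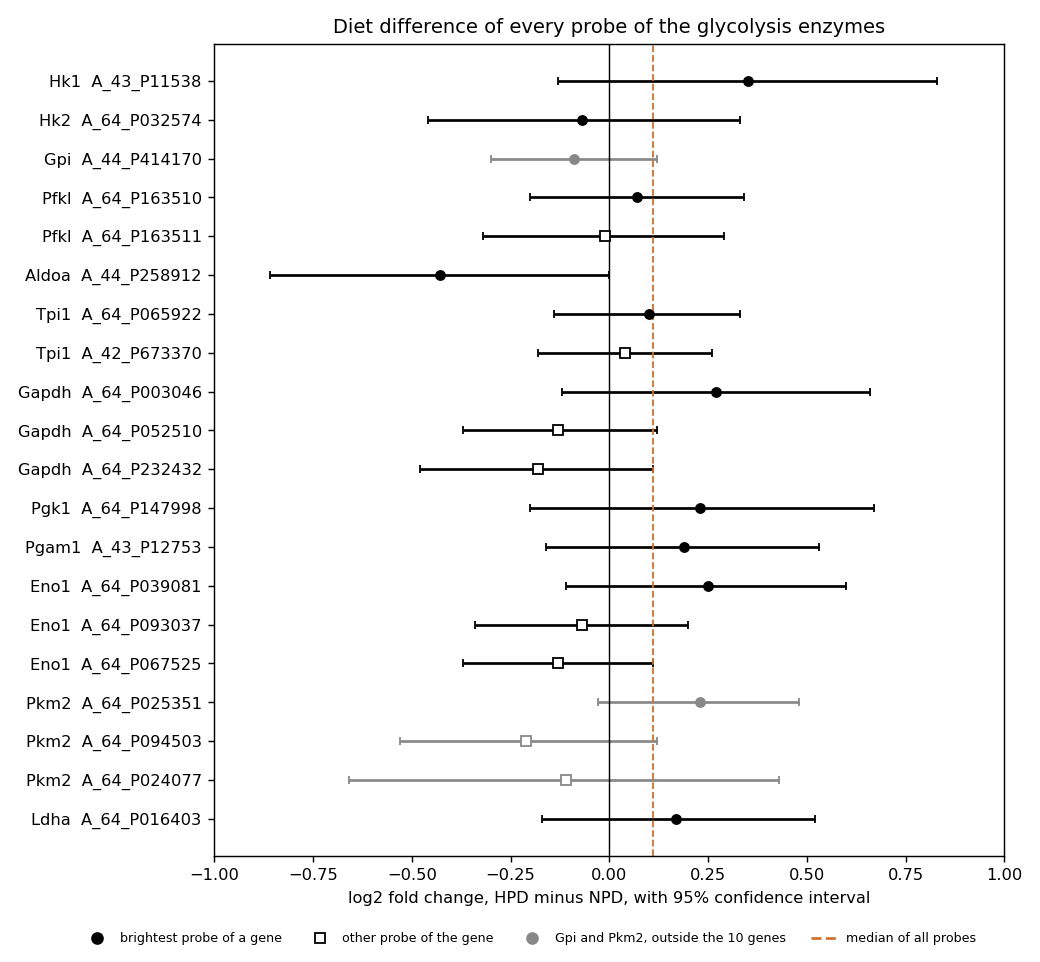
Difference between the diets (x axis, HPD minus NPD in log2 units, with 95% confidence interval from limma) for each probe of the 10 genes (black) and of Gpi and Pkm2 (grey), in pathway order and, within a gene, from the 3′ end upstream. All intervals reach 0 or span it, and Gapdh, Eno1 and Pkm2 each have a positive difference at the 3′ probe and negative ones further upstream.

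Probes of the same gene differed in the direction of their values. In Gapdh the 3′ probe differed by 0.27, while the probes beginning 122 and 339 bases upstream differed by -0.13 (SE 0.12) and -0.18 (SE 0.14), and at each of them 6 of the 7 HPD rats were below the mean of NPD. In Eno1 the 3′ probe differed by 0.25 and the others by -0.07 (SE 0.13) and -0.13 (SE 0.11). In Pkm2 the 3′ probe differed by 0.23, the next one upstream by -0.21 (SE 0.15), and the last, well above background on 11 arrays, by -0.11 (SE 0.26). The gap between 2 probes of a gene in the same rat was then compared between the diets. For the Gapdh probe beginning at base 1000, the 3′ probe minus this probe ranged from -0.44 to 0.34 (median -0.30) in NPD and from -0.41 to 0.75 (median 0.33) in HPD, a shift of 0.39. The p was 0.0728 over all splits and 0.00816 within slides (exact two-sided permutation test). The shift was 0.45 for the other upstream Gapdh probe (exact permutation p = 0.105, and 0.00816 within slides), 0.32 for the chromosome 5 pair of Eno1 (0.0874 and 0.00816) and 0.44 for Pkm2 (0.0868 and 0.0106). Leaving out each array in turn, these 4 shifts ranged from 0.31 to 0.51, 0.35 to 0.58, 0.26 to 0.41 and 0.35 to 0.56. The highest value of each was that without HPD replicate 1. For the pairs of Tpi1 and Pfkl the shifts were 0.06 and 0.08 (exact permutation p = 0.0927 and 0.173, and 0.1 and 0.202 within slides). In each of the 6 pairs, those of Tpi1 and Pfkl included, 6 of 7 HPD rats lay above the NPD mean, and the lowest HPD rat was replicate 1. The Pfkl probes begin 120 bases apart, about as far as the first Gapdh pair at 122. These were 6 pairs in all, of which the 2 of Gapdh share the 3′ probe, and their p-values are not adjusted.

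**Figure D3:**
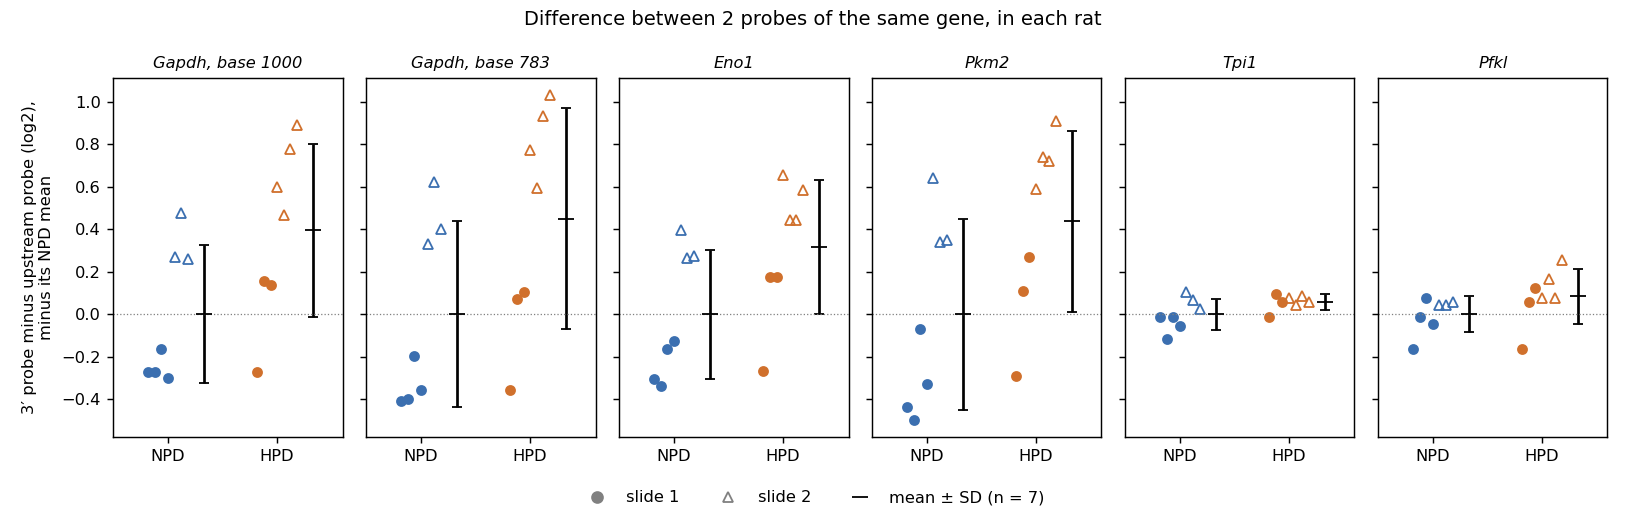
Signal of the 3′ probe minus that of an upstream probe of the same gene in each rat, minus the mean of this gap in NPD (y axis, log2 units). Filled circles are arrays of slide 1, open triangles arrays of slide 2, and bars the mean ± SD over 7 rats. The upstream Gapdh probes begin at bases 1000 and 783, as marked. The gap is wider in HPD by 0.32 to 0.45 in the Gapdh, Eno1 and Pkm2 panels, and wider on slide 2 than on slide 1 in both diets.

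A gap between the 3′ end and the rest of a transcript is also a measure of RNA and labelling quality, so it was taken across the array. In 1821 genes with probes at least 60 bases apart in the genome, the difference between the diets was more positive at the 3′ probe in 64.2%, by a median of 0.08. The median gap of an array was 1.67 ± 0.11 (SD, n = 7) in NPD and 1.75 ± 0.14 (SD, n = 7) in HPD (p = 0.277 over all splits of the arrays and 0.263 within slides, both by exact two-sided permutation). The part of RNA quality in the results on single genes was not tested. The Aldoa probe begins at base 581, and no probe near the 3′ end of Aldoa was on the array to set beside it.

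Probes of other gene names that the array describes as Gapdh-like also differed in direction. Of 72 such probes, 67 were well above background on all arrays. Among these 67, the 5 probes that hold CANTAAAGT or GGGAGCC (letters read on the probe's own strand, N any base) had differences from 0.30 to 0.38. The other 62 ranged from -0.52 to 0.25 with a median of -0.14, and 61 of them were lower in HPD. Both motifs were picked after the values were seen, from probes that resemble the end of the transcript with its polyadenylation signal. Since the 5 probes are those that hold either motif, how often each motif occurs among them is fixed by this choice. Over all 30367 probes, 0.346% hold the former and 0.359% the latter. The 14 Gapdh-like probes that match the probe at base 1000 over at least 30 bases with at least 85% identity differed by -0.22 to -0.11, and the 4 that match the probe at base 783 by -0.21 to -0.19, beside -0.13 and -0.18 for these Gapdh probes. By the same rule 0 of the 67 matched the 3′ probe of Gapdh, so the 5 probes with a motif were not matched to it. No Gapdh-like probe was called (limma, lowest adjusted p = 0.435), and these probes are not independent, since they may bind the same RNA.

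**Figure D4:**
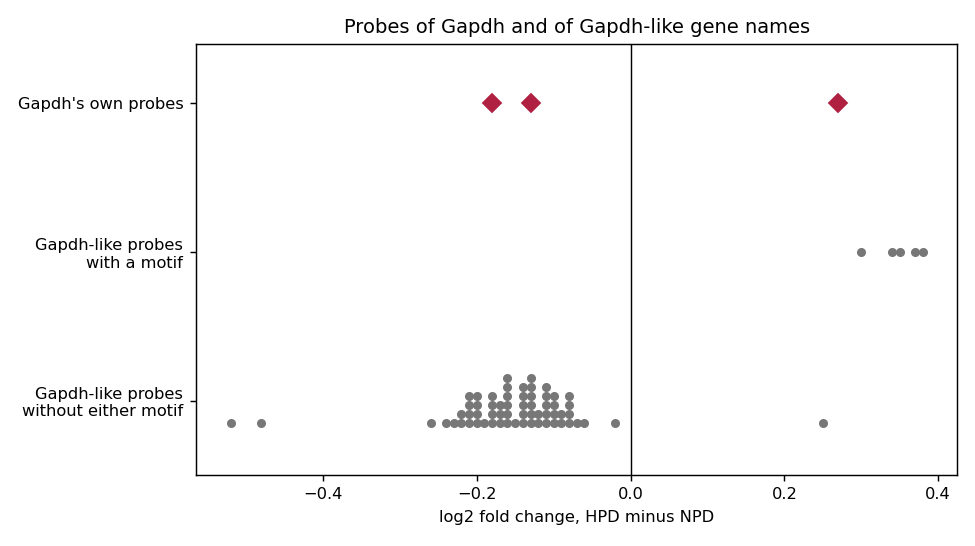
Difference between the diets (x axis, HPD minus NPD in log2 units) of the 3 probes of Gapdh (red diamonds) and of 67 probes of Gapdh-like gene names (grey points, stacked where values are equal), split by whether the probe holds CANTAAAGT or GGGAGCC. The 5 probes with a motif lie between 0.30 and 0.38, and 61 of the other 62 lie below 0.

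Near-copies of 3 other enzymes, Tpi1, Pgk1 and Ldha, had a lower mean in HPD while the gene's own 3′ probe had a higher one, and that of Eno1 did not. The 2 Tpi1-like probes well above background, both of LOC500959, differed by -0.37 and -0.41, the Pgk1-like probe by -0.40 and the 2 Ldha-like probes by -0.39 and -0.41. The Eno1-like probe differed by 0.01. None was called (limma, lowest adjusted p = 0.417).

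The rest of the pathway was taken from gene lists. Of 17 further enzymes and isoforms of glycolysis on the array, 12 had a signal well above background throughout a diet. In the whole list 0 were called, 11 had a higher and 6 a lower mean in HPD, and their median difference was 0.07. The lowest value was that of Ldhb, the heart-type subunit of lactate dehydrogenase, which read 1.02 ± 0.81 in NPD and 0.24 ± 0.94 in HPD (SD, n = 7). Its difference was -0.77 (SE 0.43, limma adjusted p = 0.472), a value within the spread between rats, and the diets overlapped (p = 0.122 over all splits of the arrays and 0.153 within slides, both by exact two-sided permutation).

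Of 6 hexose transporters, 2 had a signal well above background throughout a diet. These were Slc2a1, the basal glucose transporter, at 0.11 (SE 0.16) and Slc5a1, the sodium-coupled one, at 0.01 (SE 0.24). In the list 5 had a higher mean in HPD, among them Slc2a2, Slc2a4 and Slc2a5, which were not well above background throughout either diet. Of 5 genes of lactate transport 4 had a higher mean, with 0.24 (SE 0.14) for the monocarboxylate transporter Slc16a1 and -0.28 (SE 0.21) for its chaperone Bsg. The genes that set the level of fructose 2,6-bisphosphate or remove a phosphate from fructose 1,6-bisphosphate ranged from -0.14 in Pfkfb2 to 0.20 in Fbp2. In the list of pyruvate entry into mitochondria, 8 of 13 had a higher mean. The lowest were Pdk3 and Pdk1, 2 of the kinases that switch off pyruvate dehydrogenase. Pdk2, the kinase with the highest signal (mean 4.58 in NPD), had a higher mean in HPD, by 0.15 (SE 0.12). Pdk4, well above background on 6 arrays, differed by -0.26 (SE 0.32). Pdk1 read 1.93 ± 0.27 in NPD and 1.56 ± 0.16 in HPD (SD, n = 7), a difference of -0.37 (SE 0.13, limma adjusted p = 0.417) and 7 of the 7 HPD rats were below the mean of NPD (p = 0.00466 over all splits of the arrays and 0.00163 within slides, both by exact two-sided permutation). Pdk3 differed by -0.81 (SE 0.30, limma adjusted p = 0.417; exact permutation p = 0.0297, and 0.00163 within slides).

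In the pentose phosphate pathway, which branches off at glucose 6-phosphate, all 6 measured genes had a higher mean in HPD, by 0.07 to 0.21. Of 5 genes of gluconeogenesis 4 had a lower mean, led by G6pc3 at -0.45 (SE 0.22) and Pc, the pyruvate carboxylase, at -0.36 (SE 0.21). Among the branches to fructose, glycogen and serine, Khk, which phosphorylates fructose, differed by 0.28 (SE 0.16) and the glycogen phosphorylase Pygb by -0.40 (SE 0.20). The regulators included Hif1a, the hypoxia factor that drives many glycolysis genes, at -0.06 (SE 0.25), Egln3, a prolyl hydroxylase that marks it for decay, at -0.35 (SE 0.17), and Mlxipl, a carbohydrate-responsive factor, at 0.47 (SE 0.23). Reference genes ranged from -0.54 for Gusb to 0.28, with -0.05 (SE 0.13) for Actb, 0.14 (SE 0.18) for Hprt1 and -0.39 (SE 0.23) for Ywhaz. With the cell type markers added, these lists had 122 genes on the array, of which 0 were called by limma (lowest adjusted p = 0.417).

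Markers of cell types were tested in the same way, and 0 were called. Of the 7 absorptive markers 5 had a higher and 2 a lower mean in HPD. Sums of linear signal were also taken, without centring on the array median. That median ranged from 66.0 to 100 in NPD and from 53.5 to 75.1 in HPD, so the sums of the diets are not on a common scale. The summed linear signal of the absorptive markers ranged from 246000 to 353000 in NPD and from 214000 to 322000 in HPD, that of 5 goblet markers from 291000 to 651000 and from 184000 to 656000, and that of 4 stem and cycling markers from 5480 to 8440 and from 3620 to 7140. Markers of the same list differed in opposite directions. Of the 5 goblet markers 2 had a higher and 3 a lower mean in HPD, from -0.56 (SE 0.25) in Clca1 to 0.40 (SE 0.21) in Spdef, with 0.01 (SE 0.22) in Muc2. Of the 5 stromal and muscle markers 3 had a higher and 2 a lower mean, with 0.35 (SE 0.11) in the collagen gene Col1a1, -0.48 (SE 0.20) in the smooth muscle myosin Myh11 and -0.56 (SE 0.42) in Des. The stem and cycling markers ranged from -0.68 (SE 0.27) in Top2a to 0.44, the immune markers from -0.61 to 0.34 (SE 0.15) in Itgam, and the red cell markers from 0.08 in Hbb to 0.52 (SE 0.17) in the haemoglobin gene Hba-a2. The sums of 5 immune markers ranged from 727 to 1790 in NPD and from 535 to 927 in HPD, those of 5 stromal and muscle markers from 846 to 2120 and from 492 to 1310, those of 4 red cell markers from 3090 to 5560 and from 2840 to 9810, and those of 5 enteroendocrine markers from 47500 to 81500 and from 31700 to 73200. All markers measured were well above background on at least 1 array, but some were near the background on most. Col3a1 was well above it on 1 array, Cd3e on 3, and Lgr5 and Alas2 on 7 each. The lowest immune value, -0.61, is that of Cd3e, and the highest stem and cycling value, 0.44, that of Lgr5. Their part in the differences of the glycolysis genes was not tested.

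The direction of several genes depended on the processing. In the normalized table that the authors deposited, with 1 value per gene name, 6 of the 10 genes had a lower mean in HPD. Of all gene names, 41.4% had a lower one. The median difference was -0.09 over the 10 genes and 0.05 over all gene names. Gapdh then differed by -0.14 and Eno1 by -0.10. Genes with only 1 probe were lower in that table too, with Hk1 at 0.22 in place of 0.35 and Aldoa at -0.58 in place of -0.43. Likewise Pgk1 was at 0.09 in place of 0.23 and Ldha at 0.03 in place of 0.17. With slide as a block in that table Aldoa was called, at -0.46 (limma adjusted p = 0.0532), in a fit that called 10.5% of all gene names and 6.5% as lower. Across 32 settings Aldoa ranged from -0.58 to -0.34 and Hk1 from 0.13 to 0.43, and no setting turned the direction of either. The same held for Pgk1 (0.04 to 0.33), Pgam1 (0.00 to 0.25) and Ldha (0.01 to 0.24), whose lowest values were near 0.

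**Figure D5:**
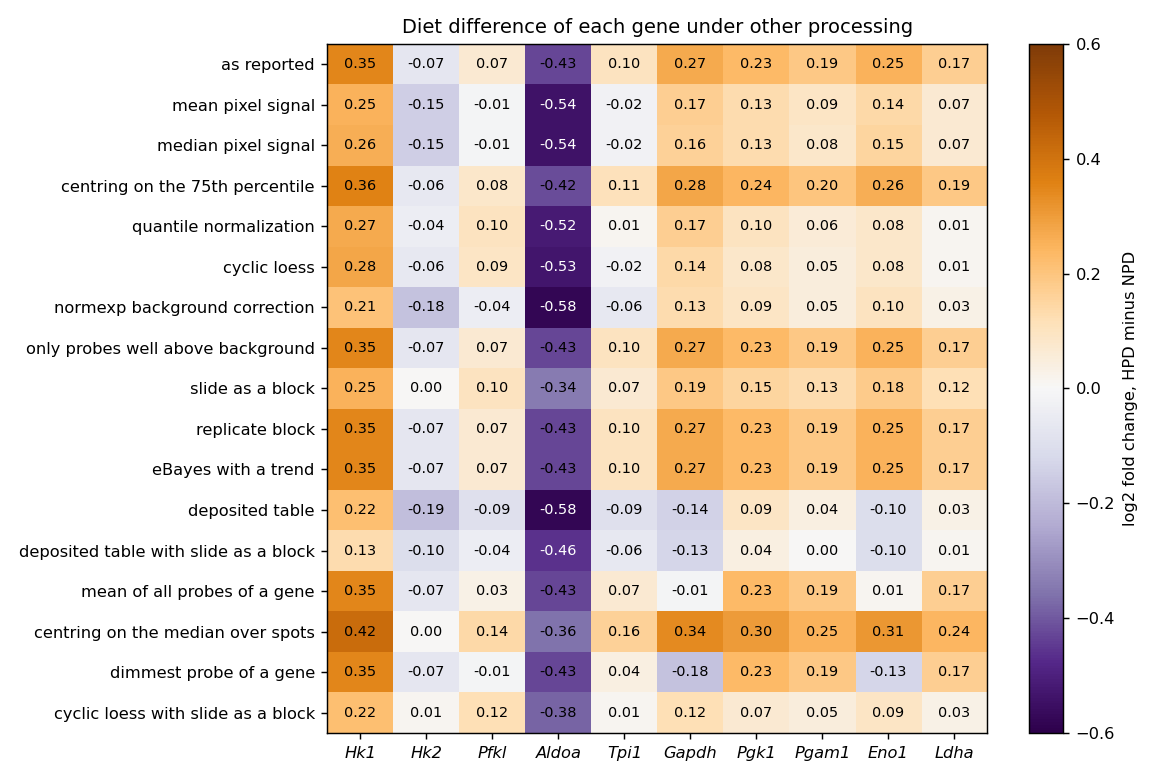
Difference between the diets (colour and number in each cell, HPD minus NPD in log2 units) of the 10 genes (columns) as reported and under other processing (rows). Aldoa is negative and Hk1, Pgk1 and Ldha are positive in every row, and Pgam1 is positive or 0.00. Hk2, Pfkl, Tpi1, Gapdh and Eno1 change sign in some rows.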

How the data were processed

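Each sample's diet and replicate number came from its title. The authors deposited 1 Feature Extraction 10.7.3.1 scanner file per array, with linear intensity values for every spot, and a table of log2 values per gene name that they normalized with a log2 transformation and centring by array before a limma fit. The signal column and the centring statistic of that table are not given in the sources used here.

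Here control and outlier spots were left out, the processed (background-subtracted) signal was log2-transformed, spots of a probe were averaged, and arrays were centred on the median over probes. The diet contrast was fitted in limma 3.58.1 under R 4.3.3 (lmFit, then eBayes, with no other term, no filter on signal, Benjamini-Hochberg adjustment over 30367 probes, threshold 0.1), with the package data.table (1.17.8) to read the files. The brightest probe stood for a gene. For single values, the exact two-sided permutation test ran over 3432 splits of the arrays, with 0.000583 as the smallest p, and over 1225 splits made within the slides. p-values set the difference between the diets against the spread between these rats, and precision is limited by the number of arrays.

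The 10 genes and all lists were chosen with earlier results of these data known. Genes named were the 10 with all their probes, Gpi, Pkm, Hif1a, Actb, Hprt1, any called gene of the other lists and the 2 of each with the smallest p well above background, and the 5 genes most alike. Further genes of the lists were named to give a range, a signal near background or the rest of a family. Near-copies were found by the array's descriptions, and Aldoal1, the near-copies and both motifs were named after their values were seen. Base positions in a transcript are the array files' probe starts, whose distances matched the coordinates for the pairs of Pfkl and Tpi1. In the other pairs tested the coordinates of the 5′ ends lay further apart than the starts (232 against 122 and 538 against 339 bases in Gapdh, 259 against 140 in Eno1 and 1059 against 500 in Pkm2). Between the 3′ ends of the Gapdh probes the coordinates lay 123 and 450 bases apart, the former close to the distance of the starts. The paired probes of Eno1 and of Pkm2 have different target transcripts. Hkdc1, Pgd, Tigar and Mki67 were not found by symbol, and some genes of the lists are not reported here. No genome was given for build rn4, so exons were not checked.

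The alternatives were the pixel mean or median in place of the processed signal, the 75th percentile for centring, quantile or cyclic loess normalization, normexp background correction (offset 50), only probes well above background, slide or replicate number as a block, a trended eBayes prior, the deposited values without and with slide, an adjusted p under 0.05, the mean of all probes of a gene, and leaving out each array. Added after seeing the data were centring on the median over spots, the dimmest probe of a gene, cyclic loess with slide as a block, and the permutations within slides.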

Additional observations from a re-analysis of the deposited data

Results flagged for a closer look

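Of 32 groups tested, 7 arrays of 1 diet for each of the 16 probes, 1 held an array far from the others, where chance alone gives about 1 in 20. At the Gapdh probe beginning at base 783 (A_64_P232432), HPD replicate 1 read 8.74 while the other HPD rats lay between 7.76 and 8.14. Its gap to the nearest rat was 0.606 of the group's range, past the critical value for groups of this size. Without it the difference between the diets was -0.28 in place of -0.18. The same rat had the highest Aldoa value of the 14 arrays.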

How the results depend on the processing

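The number of glycolysis genes called was 0 in 31 of 32 settings and 1, Aldoa, in the deposited values fitted with slide as a block. The count with a lower mean in HPD was 2 as reported, 4 with the mean pixel signal, the median pixel signal and normexp, 5 at the dimmest probe, 6 in the deposited table without and with slide, and 1 with cyclic loess and slide as a block. The share of all probes with a lower mean was 35.8% as reported, and 34.3%, 34.1% and 37.1% with the mean pixel signal, the median pixel signal and normexp. It was 41.4% and 43.6% of gene names in the deposited table without and with slide, and 50.2% of probes with cyclic loess and slide. The median difference of 0.18 turned to -0.09 in the deposited table and to -0.05 there with slide, and stayed positive but smaller with the mean and median pixel signal (0.08 each), quantile normalization (0.07), cyclic loess without and with slide (0.06 each), normexp (0.04), the mean of all probes (0.05), slide as a block (0.12) and the dimmest probe (0.01). Leaving out each array in turn, the count called was 0 to 0, the count lower 1 to 2, the median 0.09 to 0.24, and the counts with an unadjusted limma p under 0.05, of list genes called and of genes with an exact permutation p under 0.05 each 0 to 1. The count with an unadjusted p under 0.05 was 0 as reported and 1, Aldoa in every case, with the mean and median pixel signal, normexp, slide as a block, a filter to probes well above background, a trended eBayes prior, the deposited values without and with slide, the mean of all probes, and cyclic loess with slide. By the exact permutation test 1 gene had a p under 0.05 with the mean pixel signal, quantile normalization and normexp. Of the 122 list genes, 12 were called with normexp, which called 14.5% of all probes (4408, against 17), and 9 in the deposited table with slide, where 2767 of 26414 gene names were called. Changes of sign were Pfkl at -0.01 with the mean pixel signal, -0.01 with the median, -0.04 with normexp, -0.09 in the deposited table, -0.04 there with slide and -0.01 at the dimmest probe, and Tpi1 at -0.02 with the mean pixel signal, -0.02 with the median, -0.02 with cyclic loess, -0.06 with normexp, -0.09 in the deposited table and -0.06 there with slide. Gapdh was -0.14 in the deposited table, -0.13 there with slide, -0.01 as the mean of its probes and -0.18 at the dimmest, and Eno1 -0.10, -0.10 there with slide and -0.13 at the dimmest. Hk2 was 0.01 with cyclic loess and slide, and -0.20 to 0.03 leaving out each array. Upstream probes enter the mean and stand as the dimmest by construction, and the cause of the other changes was not tested. Quantile normalization and cyclic loess moved the median of all probes from 0.11 to 0.01 and 0.00, and the median over spots to 0.17.

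Replicate numbers are shared between the diets. The deviations of same-numbered rats correlated at 0.39, 0.21, 0.14, -0.09, 0.21, 0.38 and 0.29 for replicates 1 to 7, so that the numbers were not taken to pair the samples, and not every sample correlated best with its own number. With the replicate block 0 of the 10 genes were called, 8 probes in all were called, and 3 genes, Hk1, Aldoa and Gapdh, had an unadjusted limma p under 0.05.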
